A study of Homo sapiens with 3 samples.

Results

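Translation initiation and elongation factors were followed in RWPE1 cells, an immortalized line of normal human prostate epithelium. They were taken as the protein-coding rows of the gene count table whose symbol begins with EIF and a digit from 1 to 6, or with EEF1 or EEF2. The eIF2 kinases, EEF2K, the methyltransferases that modify eEF1A and eEF2, and the Y-linked EIF1AY were left out by the same rule. This gave 59 of the 58037 genes in the table, 51 initiation factors and 8 entries named for elongation factors. The rule left out 10 protein-coding rows that carry these symbols, and 155 pseudogene rows and 7 long noncoding RNA rows were not protein-coding.

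Protein synthesis begins when eIF2 carries the initiator tRNA to the small ribosomal subunit. EIF1, eIF1A, eIF3 and eIF5 hold that subunit ready to scan. The eIF4F complex joins the cap-binding protein eIF4E, the helicase eIF4A and the scaffold eIF4G at the 5′ end of the mRNA, and eIF5B then brings in the large subunit. During elongation eEF1A delivers each aminoacyl-tRNA and eEF2 moves the ribosome on by a codon. Many genes of this machinery are known targets of MYC, and the elongation factor mRNAs are known for a terminal oligopyrimidine start, a run of pyrimidines at the cap through which mTOR controls their translation.

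The study made 3 bulk libraries of ribosome-depleted, stranded total RNA from RWPE1 cells, 1 library per group. It asked how loss of OLFM4, a secreted glycoprotein, alters these cells. Its methods call the bulk cells GFP-sorted, while its results name only OLFM4-knockout cells as sorted. Whether sorting was the same for all 3 libraries is therefore not settled. OLFM4-knockout cells had been transfected with CRISPR/Cas9 double nickase plasmids against OLFM4, and the other genotypes were labelled OLFM4-wild and OLFM4-active. Stable lines were selected in puromycin and were clones, so a clone and its genotype cannot be told apart. Plasmids for CRISPR/Cas9 activation of OLFM4 were described for making GFP reporter cells named OLFM4-wild, and whether the sequenced OLFM4-wild or OLFM4-active cells are those reporter cells is not given in the sources used here.

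Counts summed over all genes came to 16309906 in OLFM4-wild, 58837147 in OLFM4-knockout and 23224216 in the library labelled OLFM4-active. A read pair on overlapping genes may enter these sums more than once, as set out below for EIF4A2. Libraries are named by these labels below, and levels are CPM, that is counts set to a common library size, over library sizes scaled with TMM factors of 1.11, 0.872 and 1.03 in that order, and a floor of 3 counts equals 0.165, 0.0584 and 0.126 CPM. OLFM4 had 214 counts or 11.8 CPM in OLFM4-wild, 131 counts or 2.55 CPM in OLFM4-knockout and 16 counts or 0.670 CPM in the library labelled OLFM4-active. The last value is the lowest of the 3 and goes against the label, so no direction drawn from that library is a direction of more OLFM4. MYC stood at 274, 510 and 486 CPM. All 4 basal markers (KRT5, KRT14, KRT15 and TP63) were found in each library. The luminal marker KLK3 had 2 counts in OLFM4-wild and 0 in the others, and the leukocyte and endothelial marker lists summed to less than the level of 1 CPM in each library. KRT8 stood at 282, 231 and 146 CPM and KRT18 at 177, 191 and 157 CPM, and KRT8 was called lower in the library labelled OLFM4-active, at -0.95 on the log2 scale (95% interval -1.01 to -0.88) over OLFM4-wild. The basal list summed to 16778 CPM in OLFM4-wild, 37575 in OLFM4-knockout and 19775 in the library labelled OLFM4-active, with 3 of its 4 genes called higher in OLFM4-knockout and 0 in the library labelled OLFM4-active. The fibroblast list (COL1A1, COL1A2 and DCN) summed to 34.0, 31.7 and 22.8 CPM in the same order, most of it COL1A1. COL1A2, with 50, 268 and 24 counts, was called higher in OLFM4-knockout (0.91) and lower in the library labelled OLFM4-active (-1.44), both over OLFM4-wild. The part of these cell type markers in the ratios below was not tested. A level in bulk RNA cannot tell fewer cells of a type from less RNA per cell.

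The translation factor genes were expressed broadly. Of the 59, 58 reached a mean of 1 CPM over the 3 libraries, and the remaining one, EIF4E1B, an oocyte relative of eIF4E, had 0, 0 and 1 count. Together they took 2.39% of the counts of OLFM4-wild (95% interval 2.38 to 2.40), 2.57% of OLFM4-knockout (2.57 to 2.58) and 2.45% of the library labelled OLFM4-active (2.44 to 2.45). These intervals, like all others here, are exact Clopper-Pearson intervals at 95% and cover counting error only. EEF1A1 alone held 38.2%, 39.2% and 33.5% of the members' counts in the same order. The 7 elongation factors together held 64.0% and 65.4% in OLFM4-wild and OLFM4-knockout, and 57.0% in the library labelled OLFM4-active, which was the lowest of the 3.

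**Figure D1:**
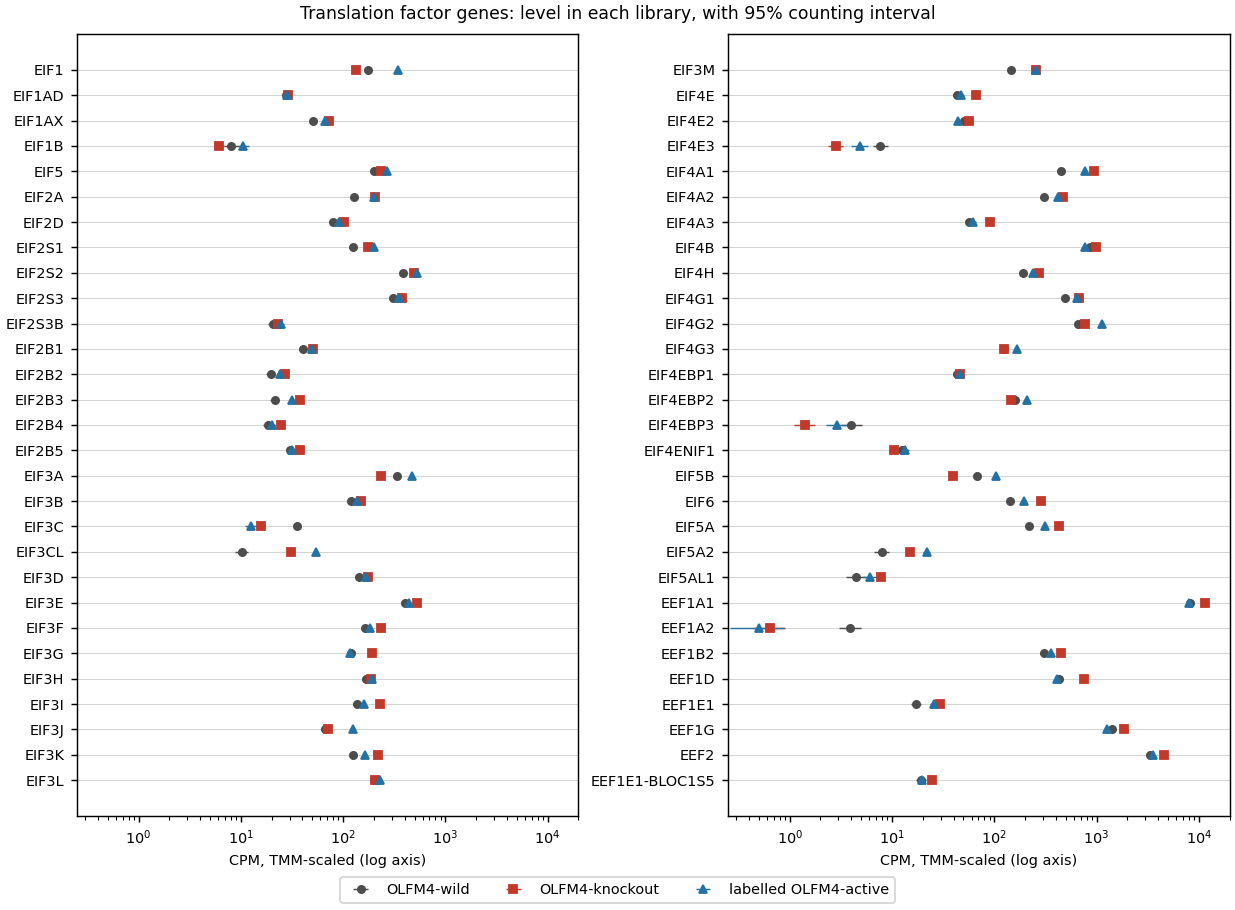
Level of each of the 58 translation factor genes that averaged 1 CPM or more, as TMM-scaled CPM on a log axis, in OLFM4-wild (grey circles), OLFM4-knockout (red squares) and the library labelled OLFM4-active (blue triangles), with 95% counting intervals. The highest level lay in OLFM4-knockout for 37 genes, in the library labelled OLFM4-active for 17 and in OLFM4-wild for 4, an order that depends on the TMM scaling.

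A ratio between libraries is given as the log2 ratio of TMM-scaled CPM, and a gene was called higher or lower when it differed by at least 1.5-fold in that direction (0.58 on the log2 scale). With 1 library per group there is no test, and each value compares libraries, not conditions. For OLFM4-knockout over OLFM4-wild, 17 of 58 translation factor genes (29.3%) were called higher, beside 19.1% of all 16600 genes tested and 17.6% of the 12795 protein-coding ones. In the same comparison 5 members (8.62%) were called lower, beside 15.8% of all genes and 14.8% of protein-coding genes. The median log2 ratio of the members was 0.37, with quartiles of 0.13 and 0.65, and that of all genes tested was 0.10, with quartiles of -0.34 and 0.48. In all, 48 members lay above 0 and 10 below, beside 9405 and 7195 of all genes tested. Of the 9662 protein-coding genes that averaged 10 CPM or more, 18.9% were called higher and 8.99% lower, with a median of 0.16 and 6091 above 0. The 53 members at that level had 30.2% called higher and 3.77% lower, with a median of 0.40 and 47 above 0.

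The scaling set where 0 lies. Library totals in place of TMM lowered every log2 ratio of this comparison by 0.35, so that all genes had a median of -0.26 and the members one of 0.02, and 19 of the 58 members then changed sign. Under library totals 4 members were called higher and 9 lower, beside 7.02% and 30.2% of all genes. The members' median stayed 0.28 above that of all genes under each scaling, and 45 of 58 members lay above the median of all genes. The calls that held under all 4 other scalings tried were EIF3CL, EIF4A1, EIF6 and EIF5A among the 17 called higher. All 5 called lower did so, namely EIF3C, EIF4E3, EIF4EBP3, EIF5B and EEF1A2. TPM, the share of all length-corrected counts within a library, is not counted among the scalings here or below. In TPM EIF4A1 stood at 388 in OLFM4-wild and 528 in OLFM4-knockout, EIF6 at 203 and 265, and EIF5A at 263 and 336. EIF4A1, EIF6 and EIF5A were thus less than 1.5-fold apart in TPM, while EIF3CL, at 5.33 and 10.5, was not. Any ratio between 0 and 0.35 in this comparison turned negative with library totals, and the text therefore gives role groups by their distance from the median of all genes.

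The library labelled OLFM4-active shares OLFM4-wild as its reference, so its ratios are not independent of the first comparison. There, 10 members (17.2%) were called higher, beside 12.3% of all genes tested and 10.3% of protein-coding genes. EEF1A2, EIF3C and EIF4E3 were called lower, that is 3 members (5.17%), beside 14.5% of all genes and 13.5% of protein-coding genes. The members' median was 0.24 against 0.05 for all genes, and library totals lowered both by 0.11. Of those called higher, 7 held under all 4 other scalings (EIF1, EIF3CL, EIF3J, EIF3M, EIF4A1, EIF4G2 and EIF5A2), as did the 3 called lower, while EIF2A, EIF2S1 and EIF5B fell under 1.5-fold with library totals, at 0.52, 0.576 and 0.51. Set directly against the library labelled OLFM4-active, OLFM4-knockout had 2 members called higher (3.45%), beside 14.0% of all genes and 12.8% of protein-coding genes. It had 8 called lower (13.8%), beside 10.9% and 9.42%. The median there was 0.14 for the members and 0.08 for all genes, and with library totals these became -0.10 and -0.16. EEF1D alone of the 2 called higher, and all 8 called lower, held under the 4 other scalings.

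**Figure D2:**
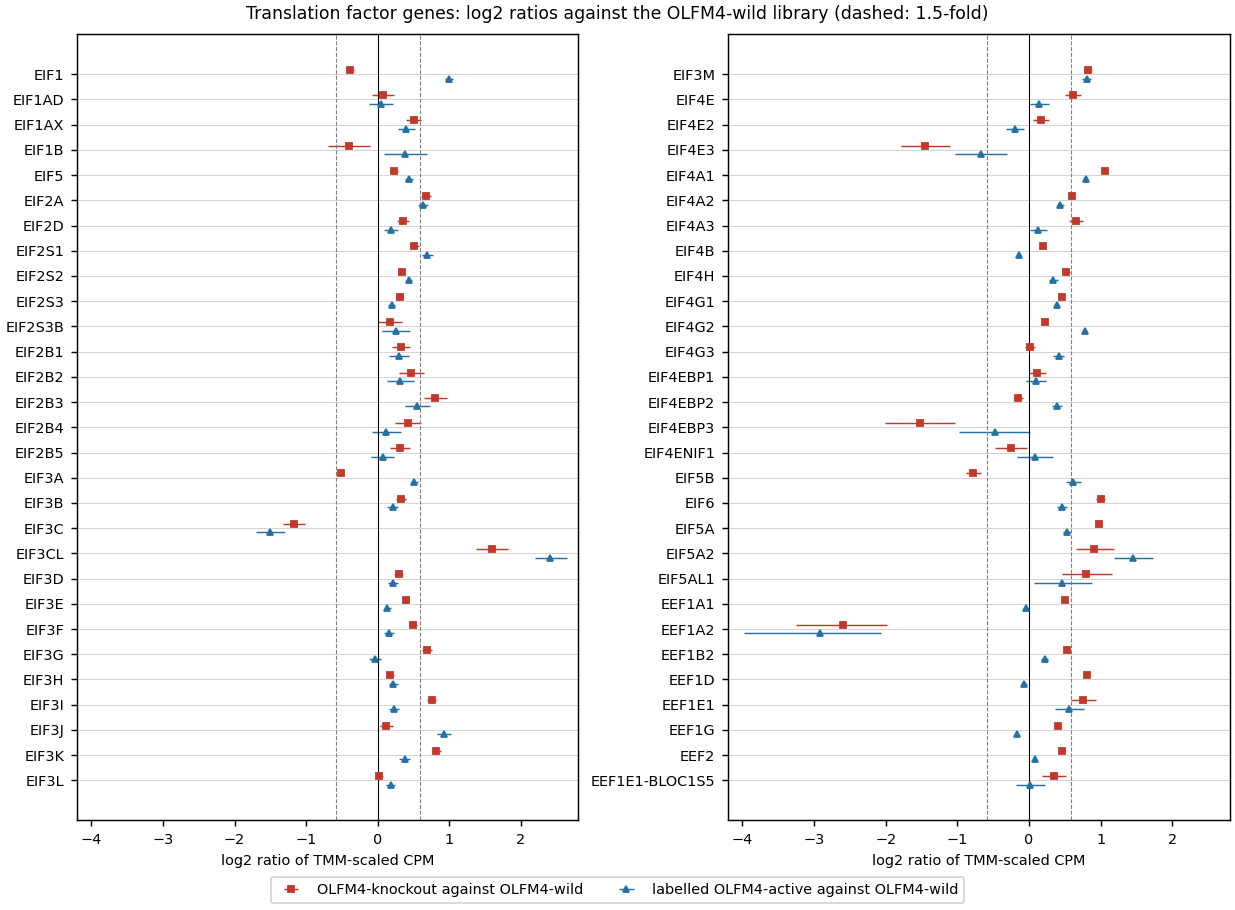
Log2 ratios of TMM-scaled CPM for the 58 translation factor genes in OLFM4-knockout (red squares) and the library labelled OLFM4-active (blue triangles), each against OLFM4-wild, with 95% counting intervals and dashed lines at 1.5-fold. EEF1A2 lies farthest to the left and EIF3CL farthest to the right in both comparisons, while EIF1, EIF3A and EIF5B lie on opposite sides of 0. Library totals would move all red squares left by 0.35 and all blue triangles left by 0.11.

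In start codon selection, EIF1 and EIF1B parted OLFM4-knockout from the library labelled OLFM4-active. EIF1, which keeps the scanning ribosome from starting at a wrong codon (chr17:41688885-41692668 in GRCh38, plus strand), stood at 174 CPM in OLFM4-wild, 133 in OLFM4-knockout and 346 in the library labelled OLFM4-active. Its log2 ratio was -0.39 (95% interval -0.45 to -0.33) in OLFM4-knockout and 0.99 (0.93 to 1.05) in the library labelled OLFM4-active, both against OLFM4-wild. Between those libraries it was -1.38 (-1.43 to -1.33), next to the lowest of the 58. EIF1B, its close paralog, followed the same order at 8.09, 6.12 and 10.6 CPM, with a ratio of -0.79 (-1.04 to -0.55) between OLFM4-knockout and the library labelled OLFM4-active. EIF1 made up 95.6%, 95.6% and 97.0% of the counts of the pair. The other members of the group did not show this order. EIF1AX, which works with EIF1 in scanning, stood at 50.9, 72.2 and 67.0 CPM. EIF5, which sets off GTP hydrolysis by eIF2 once the start codon is found, stood at 200, 234 and 270 CPM. EIF1AD, a nuclear protein with an eIF1A-like domain, was level at 27.7, 29.1 and 28.6 CPM. The group's median ratio for OLFM4-knockout over OLFM4-wild was -0.03 from that of all genes, and 0.35 above it in the library labelled OLFM4-active.

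The factors that deliver the initiator tRNA lay above the median of all genes in both comparisons with OLFM4-wild, by 0.24 and 0.29. EIF2S1, the eIF2 subunit whose phosphorylation lowers general translation, stood at 124, 177 and 200 CPM in OLFM4-wild, OLFM4-knockout and the library labelled OLFM4-active. Its ratio was 0.51 (0.44 to 0.58) in OLFM4-knockout, short of a call, and 0.69 (0.62 to 0.76) in the library labelled OLFM4-active, which was called. EIF2S2, the subunit that EIF5 contacts, had 390, 491 and 526 CPM, and EIF2S3, which holds the GTP and the tRNA, had 305, 379 and 349. EIF2S3B, a copy of EIF2S3 on chromosome 12, had 20.6, 23.1 and 24.5 CPM and 12.4% of the 75-base windows of the EIF2S3 transcript in common with it. EIF2A, a separate initiator tRNA-binding factor, was called higher in both, at 129, 205 and 200 CPM and ratios of 0.67 (0.61 to 0.74) and 0.63 (0.56 to 0.70). EIF2D had 80.5, 103 and 91.7 CPM. Per transcript length, as TPM, the share of all length-corrected counts within a library, the eIF2 subunits kept one order, EIF2S2 above EIF2S3 above EIF2S1, at 232, 135 and 45.5 TPM in OLFM4-wild. In the same order they had 191, 109 and 42.3 TPM in OLFM4-knockout, each below OLFM4-wild. The library labelled OLFM4-active had 296, 145 and 69.5 TPM, each above OLFM4-wild.

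All 5 genes of eIF2B, which reloads eIF2 with GTP, had ratios above 0 in OLFM4-knockout with TMM (EIF2B1 and EIF2B5 turned negative with library totals), and their median lay 0.32 above that of all genes. EIF2B3 alone was called, at 21.6, 37.7 and 31.6 CPM in OLFM4-wild, OLFM4-knockout and the library labelled OLFM4-active. Its ratio was 0.80 (0.65 to 0.97) in OLFM4-knockout and 0.55 (0.37 to 0.73) in the library labelled OLFM4-active, and the first fell under 1.5-fold with library totals. EIF2B1, EIF2B2, EIF2B4 and EIF2B5 had ratios between 0.31 and 0.47 in OLFM4-knockout and between 0.07 and 0.31 in the library labelled OLFM4-active. Within each library EIF2B1 was the most abundant of the 5 per transcript length, at 25.6, 20.9 and 29.7 TPM. In TPM EIF2B1 thus stood lowest in OLFM4-knockout.

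eIF3 is the large scaffold of the small subunit, and its 14 genes did not move as one. For OLFM4-knockout over OLFM4-wild 5 (35.7%) were called higher (EIF3CL, EIF3G, EIF3I, EIF3K and EIF3M) and 1 (7.14%) lower (EIF3C). All genes tested had 19.1% and 15.8%. The calls of EIF3C and EIF3CL are uncertain, as set out below. With library totals EIF3G, EIF3I, EIF3K and EIF3M fell short of a call, at 0.33, 0.40, 0.47 and 0.47. The group's median lay 0.26 above that of all genes. EIF3A, the largest core subunit (chr10:119033670-119080817, minus strand), went the other way from most, at 334 CPM in OLFM4-wild, 233 in OLFM4-knockout and 476 in the library labelled OLFM4-active. Its ratio was -0.52 (-0.56 to -0.47) in OLFM4-knockout, short of a call. Against the library labelled OLFM4-active it was -1.03 (-1.07 to -0.99). EIF3M and EIF3K, subunits of the PCI domain type, had 145, 256 and 253 CPM and 125, 221 and 162 CPM. Both had a ratio of 0.82 in OLFM4-knockout, with intervals of 0.76 to 0.88 for EIF3M and 0.75 to 0.89 for EIF3K. In the library labelled OLFM4-active EIF3M was called as well, at 0.80 (0.74 to 0.87), while EIF3K was not, at 0.37 (0.30 to 0.45).

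EIF3G and EIF3I, which sit together in the module that contacts the mRNA entry side, were set apart by OLFM4-knockout. EIF3G had 120, 193 and 117 CPM in OLFM4-wild, OLFM4-knockout and the library labelled OLFM4-active, with a ratio of 0.68 (0.62 to 0.75) in OLFM4-knockout and -0.04 (-0.12 to 0.04) in the library labelled OLFM4-active. EIF3I had 137, 230 and 160 CPM and ratios of 0.75 (0.69 to 0.81) and 0.22 (0.15 to 0.30). EIF3J, a loosely bound subunit that helps to recycle ribosomes, showed the opposite pattern at 66.2, 72.0 and 125 CPM, with 0.12 (0.03 to 0.22) in OLFM4-knockout and 0.92 (0.82 to 1.02) in the library labelled OLFM4-active. EIF3B, EIF3D, EIF3E, EIF3F, EIF3H and EIF3L had ratios from 0.02 to 0.49 in OLFM4-knockout and from 0.14 to 0.22 in the library labelled OLFM4-active. EIF3L shares 41.1% of its exonic bases with a long noncoding gene on the same strand, and its reads cannot be fully told apart from that gene's.

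EIF3C and EIF3CL encode the same subunit from copies on chromosome 16 (chr16:28688558-28735727, plus strand, and chr16:28379579-28403841, minus strand). Their counts moved in opposite directions. EIF3C had 641, 802 and 298 counts, or 35.3, 15.6 and 12.5 CPM, and EIF3CL had 185, 1580 and 1296 counts, or 10.2, 30.8 and 54.2 CPM. EIF3C thus took 77.6% of the pair's counts in OLFM4-wild, 33.7% in OLFM4-knockout and 18.7% in the library labelled OLFM4-active. The ratio in OLFM4-knockout was -1.18 (-1.33 to -1.02) for EIF3C and 1.59 (1.38 to 1.82) for EIF3CL, the highest of any member. In the library labelled OLFM4-active these were -1.50 (-1.70 to -1.30) and 2.41 (2.19 to 2.64). Of the 75-base windows in the EIF3C transcript, 97.9% also occur letter for letter in EIF3CL, and the authors counted only uniquely mapped reads, so most reads of either gene could not be placed. The summed counts of the pair gave 0.03 (-0.09 to 0.15) in OLFM4-knockout and 0.55 (0.43 to 0.68) in the library labelled OLFM4-active. The opposite calls of EIF3C and EIF3CL are uncertain for that reason.

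**Figure D3:**
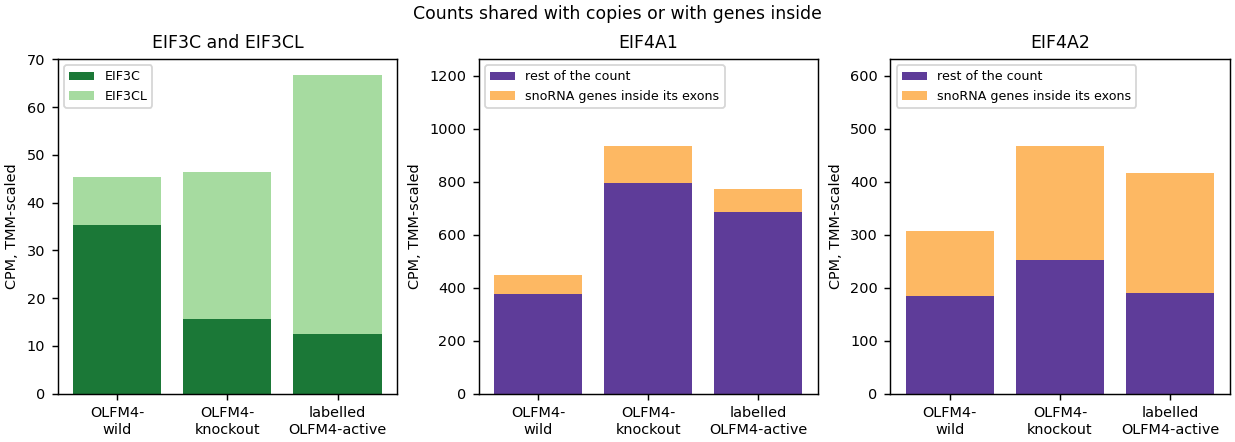
Stacked TMM-scaled CPM in the 3 libraries for EIF3C and EIF3CL (left), and for EIF4A1 (middle) and EIF4A2 (right) split into counts of snoRNA genes inside their exons and the rest of the count. The stacked EIF3C and EIF3CL bars differ less between OLFM4-wild and OLFM4-knockout (45.5 and 46.4 CPM) than either gene does alone. Counts of snoRNA genes equal 39.8% to 54.5% of the EIF4A2 count.

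The helicase group lay farther above the median of all genes in OLFM4-knockout than any other initiation group but eIF5A, by 0.51. The group's median is the EIF4A2 ratio of 0.60, which was 0.44 with snoRNA counts subtracted, as set out below. EIF4A1, the main helicase that unwinds the mRNA leader (chr17:7572824-7579006, plus strand), stood at 447 CPM in OLFM4-wild, 935 in OLFM4-knockout and 774 in the library labelled OLFM4-active. Its ratio was 1.06 (1.03 to 1.10), a 2.09-fold difference, in OLFM4-knockout and 0.79 (0.75 to 0.83) in the library labelled OLFM4-active. It was called under each scaling in both comparisons. EIF4A3, a core protein of the exon junction complex, was called in OLFM4-knockout and not in the library labelled OLFM4-active, at 57.0, 90.0 and 62.4 CPM and ratios of 0.66 (0.56 to 0.76) and 0.13 (0.01 to 0.25). EIF4B and EIF4H, which stimulate the helicase, had 857, 986 and 780 CPM and 190, 273 and 241 CPM, and neither was called. Among the 3 helicase genes EIF4A1 took 55.1%, 62.6% and 61.7% of the counts.

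EIF4A2, a helicase close to EIF4A1 (chr3:186783205-186789897, plus strand), was called higher in OLFM4-knockout by a small margin, at 308, 468 and 417 CPM and ratios of 0.60 (0.56 to 0.65) and 0.44 (0.39 to 0.49). A large share of that count overlapped small nucleolar RNA (snoRNA) genes inside its exons (SNORA63, SNORA63B, SNORA81, SNORD2 and SNORA4), which guide chemical modification of ribosomal RNA. Exons here are those of all annotated transcripts merged, 6130 bases for EIF4A2 beside 1886 in its canonical transcript. Whether these reads came from the snoRNAs or from other RNA of the host was not tested. Counts of these snoRNA genes equal 39.8% of the EIF4A2 count in OLFM4-wild, 46.1% in OLFM4-knockout and 54.5% in the library labelled OLFM4-active. With those counts subtracted, the EIF4A2 ratio was 0.44 (0.39 to 0.50) in OLFM4-knockout, short of a call, and 0.04 (-0.03 to 0.10) in the library labelled OLFM4-active. The snoRNA counts of EIF4A1 (SNORA48, SNORD10 and SNORA67) were a smaller share, 11.4% to 15.5%, and without them its ratios were 1.07 (1.04 to 1.11) and 0.86 (0.82 to 0.90). The subtraction takes each read pair of such a snoRNA gene to have been counted for its host too. The genes that overlap a member carried such shared counts elsewhere, as EEF1G and a gene that covers 99.7% of its exonic bases had 25714 and 25965 counts in OLFM4-wild. EIF4A1 shares exons with the read-through gene SENP3-EIF4A1 as well, which had 7394, 41713 and 16703 counts beside 8126, 48010 and 18484 for EIF4A1.

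The most abundant snoRNA of each host, and the SNORD2 of EIF4A2, are shown here as the sequences whose reads entered the host counts, with the box letters near the 3′ end in capitals (CTGA for a C/D box snoRNA and ACA for H/ACA box snoRNAs, GRCh38, plus strand). SNORA63 had 1192, 5758 and 2532 counts, SNORA48 had 649, 4274 and 956, and SNORD2 had 179, 514 and 236.
SNORA63 (chr3:186787300-186787431): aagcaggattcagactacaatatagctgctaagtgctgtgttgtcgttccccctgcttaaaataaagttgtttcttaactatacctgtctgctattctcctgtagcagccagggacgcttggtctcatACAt
SNORD2 (chr3:186784796-186784864): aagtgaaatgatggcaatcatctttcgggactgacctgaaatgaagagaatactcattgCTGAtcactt
SNORA48 (chr17:7574713-7574847): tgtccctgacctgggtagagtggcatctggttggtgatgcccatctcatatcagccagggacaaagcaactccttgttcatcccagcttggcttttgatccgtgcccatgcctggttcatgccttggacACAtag

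Among the 3 cap-binding genes tested 1 was called higher and 1 lower in OLFM4-knockout, beside 19.1% and 15.8% of all genes. EIF4E, the cap-binding subunit of eIF4F, stood at 43.4, 66.2 and 47.8 CPM in OLFM4-wild, OLFM4-knockout and the library labelled OLFM4-active. Its ratio was 0.61 (0.50 to 0.72) in OLFM4-knockout, just past the call and lost with library totals, and 0.14 (0.01 to 0.27) in the library labelled OLFM4-active. EIF4E2, a cap-binding relative linked to translational repression, had 50.7, 56.9 and 44.2 CPM and was not called. EIF4E3, a weak cap binder, was called lower in both at 7.70, 2.82 and 4.85 CPM, with ratios of -1.45 (-1.79 to -1.10) and -0.67 (-1.03 to -0.30). EIF4E3 had 140, 145 and 116 counts, and its share of the counts of the eIF4E genes was 7.57% in OLFM4-wild and 2.24% in OLFM4-knockout. Per transcript length EIF4E was the least abundant subunit of eIF4F in each library, at 27.2, 27.1 and 28.4 TPM beside 388, 528 and 634 for EIF4A1 and 138, 124 and 171 for EIF4G1. EIF4E was thus nearly level in TPM, and its higher level in OLFM4-knockout with TMM did not hold there. EIF4G1 stood lower in OLFM4-knockout than in OLFM4-wild in TPM.

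The scaffolds differed among themselves. EIF4G1, which bridges eIF4E, eIF4A and eIF3, had 491, 675 and 641 CPM in OLFM4-wild, OLFM4-knockout and the library labelled OLFM4-active, with ratios of 0.46 (0.43 to 0.49) and 0.39 (0.35 to 0.42), neither of them called. EIF4G2, an eIF4G-like protein that lacks the eIF4E-binding part and serves cap-independent initiation, was called higher in the library labelled OLFM4-active under each scaling, at 661, 774 and 1134 CPM. Its ratio there was 0.78 (0.75 to 0.81), and it was 0.23 (0.20 to 0.26) in OLFM4-knockout. EIF4G2 took 51.8% and 49.2% of the scaffold counts in OLFM4-wild and OLFM4-knockout and 58.4% in the library labelled OLFM4-active. EIF4G3 had 124, 126 and 166 CPM.

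Among the 4 genes that hold eIF4E back or carry it, EIF4EBP3 was called lower in OLFM4-knockout, and the group's median lay 0.30 below that of all genes, with EIF4EBP1 above it. EIF4EBP2, an eIF4E-binding protein released by mTOR phosphorylation, was the most counted of them, at 160, 144 and 209 CPM in OLFM4-wild, OLFM4-knockout and the library labelled OLFM4-active. Its ratio was -0.15 (-0.21 to -0.08) and 0.39 (0.32 to 0.45). EIF4EBP1, the best known of these inhibitors, was nearly level at 43.1, 46.7 and 46.1 CPM, with ratios of 0.11 and 0.10. EIF4EBP3 was called lower in OLFM4-knockout at 4.02, 1.40 and 2.89 CPM, with a ratio of -1.52 (-2.01 to -1.03). Its reads are uncertain, since 73.2% of its exonic bases lie in the read-through gene ANKHD1-EIF4EBP3, which had 4188, 6434 and 5065 counts beside 73, 72 and 69. EIF4ENIF1, which carries eIF4E into the nucleus, had 12.5, 10.5 and 13.3 CPM.

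EIF5B and EIF6 act on the joining of the large subunit with opposite effect, and their log2 ratios were on opposite sides of 0 in OLFM4-knockout. EIF5B, the GTPase that joins the subunits (chr2:99337371-99401326, plus strand), stood at 68.4 CPM in OLFM4-wild, 39.9 in OLFM4-knockout and 105 in the library labelled OLFM4-active. Its ratio was -0.78 (-0.88 to -0.67) in OLFM4-knockout and 0.62 (0.52 to 0.72) in the library labelled OLFM4-active. Between those libraries it was -1.40 (-1.48 to -1.31), the lowest of the 58. EIF6, which keeps free large subunits from joining and serves their maturation (chr20:35278907-35284985, minus strand), stood at 143, 286 and 197 CPM. It was called higher in OLFM4-knockout under each scaling, at 1.002 (0.94 to 1.06), and had 0.47 (0.40 to 0.54) in the library labelled OLFM4-active. EIF6 shares 17.3% of its exonic bases with another protein-coding gene on its strand.

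The eIF5A genes were called higher in OLFM4-knockout in 3 of 3 cases (EIF5A alone under every scaling), beside 19.1% of all genes. Their median lay 0.81 above that of all genes. eIF5A helps ribosomes past stalling stretches such as runs of proline and carries hypusine, an amino acid found in no other protein. EIF5A (chr17:7306999-7312463, plus strand) stood at 218 CPM in OLFM4-wild, 428 in OLFM4-knockout and 314 in the library labelled OLFM4-active, with ratios of 0.97 (0.92 to 1.02) and 0.53 (0.47 to 0.58). EIF5A2, its second gene, had 7.92, 14.9 and 21.8 CPM and was highest in the library labelled OLFM4-active, at 1.46 (1.19 to 1.74) against 0.91 (0.65 to 1.18) in OLFM4-knockout. EIF5A2 made up 3.44% and 3.31% of the eIF5A counts in OLFM4-wild and OLFM4-knockout and 6.37% in the library labelled OLFM4-active. EIF5AL1, an intronless copy with 81, 399 and 147 counts, shares 259 of its 75-base windows with EIF5A and is uncertain to that extent.

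The 7 elongation factors had ratios above 0 for OLFM4-knockout over the library labelled OLFM4-active. So had all 5 helicase group genes and all 5 eIF2B genes, beside 9404 of the 16600 genes tested. With library totals EIF4A2, EIF4H, EIF2B1, EIF2B2 and EIF2B5 turned negative. The interval of EEF1A2 (-0.63 to 1.44) spans 0. The elongation factors' median was 0.38, which lay 0.30 above that of all genes and was 0.14 with library totals, where EEF1E1 turned negative. EEF1A1, the most abundant member (chr6:73489308-73525587, minus strand), stood at 8181 CPM in OLFM4-wild, 11574 in OLFM4-knockout and 7974 in the library labelled OLFM4-active. Its ratio was 0.50 (0.49 to 0.51) in OLFM4-knockout, short of a call, and -0.04 (-0.05 to -0.03) in the library labelled OLFM4-active. EEF2 had 3361, 4611 and 3548 CPM, with 0.46 (0.44 to 0.47) and 0.08 (0.06 to 0.09). Both therefore stood highest in OLFM4-knockout with TMM. Per transcript length EEF1A1 had 3549, 3269 and 3269 TPM in the 3 libraries, so this order did not hold in TPM, while with library totals EEF1A1 still stood highest in OLFM4-knockout, by 0.15 on the log2 scale over OLFM4-wild.

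The exchange factor eEF1B, which reloads eEF1A with GTP, is made of EEF1B2, EEF1D and EEF1G. EEF1D was called higher for OLFM4-knockout over OLFM4-wild and against the library labelled OLFM4-active, at 426, 747 and 406 CPM. Its ratios there were 0.81 (0.77 to 0.84) and 0.88 (0.85 to 0.91), and the second was called under each scaling. EEF1B2 had 309, 447 and 361 CPM, with 0.53 (0.49 to 0.57) in OLFM4-knockout. EEF1G had 1415, 1873 and 1254 CPM, with 0.40 (0.38 to 0.42), and nearly all its exonic bases are shared with the overlapping gene named above. Within each library EEF1A1 was the most abundant of these genes per transcript length, followed by EEF1G, EEF1B2 and EEF1D.

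EEF1A2, the eEF1A gene of muscle and neurons, was the member with the lowest ratio in both comparisons with OLFM4-wild. It had 71, 33 and 12 counts, or 3.91, 0.643 and 0.502 CPM. The ratios were -2.59 (-3.25 to -1.99) in OLFM4-knockout and -2.91 (-3.98 to -2.07) in the library labelled OLFM4-active, so both of these libraries lay below OLFM4-wild. EEF1A2 is a trace beside the 148654, 594108 and 190524 counts of EEF1A1. EEF1E1, a scaffold protein of the tRNA synthetase complex named for its likeness to elongation factors, was called higher in OLFM4-knockout at 17.3, 29.3 and 25.6 CPM, with 0.76 (0.58 to 0.94). Its read-through gene EEF1E1-BLOC1S5 had 19.3, 24.6 and 19.6 CPM and shares 51.2% of its exonic bases with EEF1E1, so the reads of both are uncertain.

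**Figure D4:**
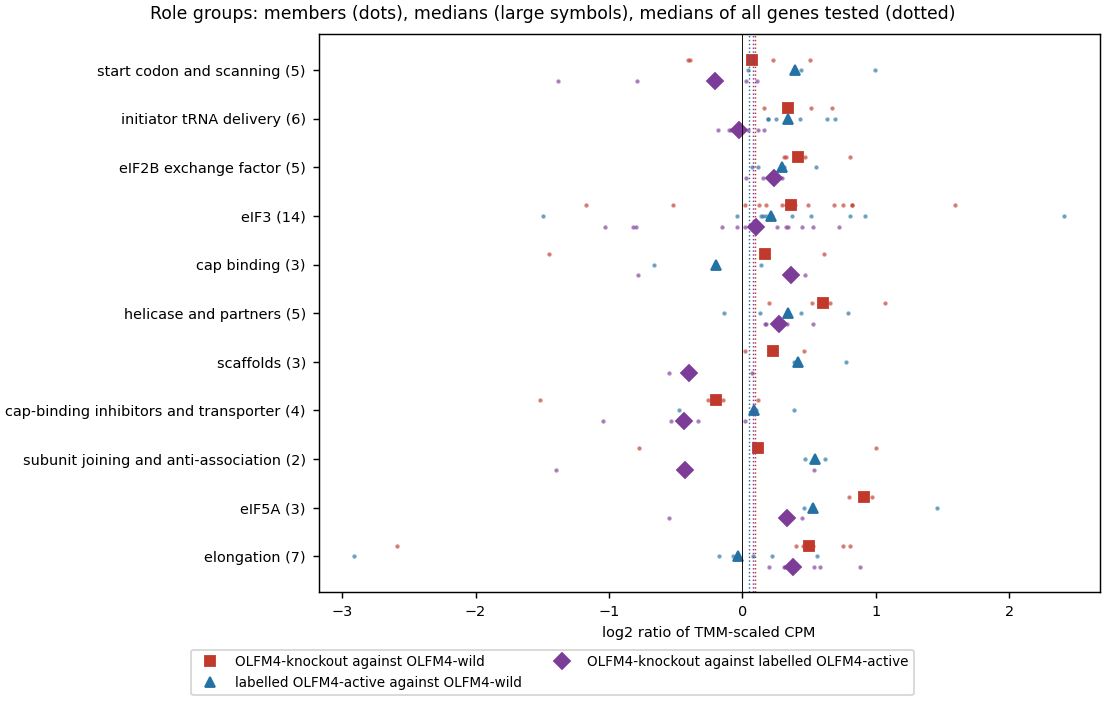
Log2 ratios of TMM-scaled CPM by role group (number of genes in brackets), with dots for genes, large symbols for group medians and dotted lines for the medians of all genes tested, for OLFM4-knockout over OLFM4-wild (red squares), the library labelled OLFM4-active over OLFM4-wild (blue triangles) and OLFM4-knockout over the library labelled OLFM4-active (purple diamonds). eIF5A and the helicases have the highest red medians (0.91 and 0.60), and the elongation group is above 0 in red (0.50) and near 0 in blue (-0.04). The helicase median of 0.60 is the ratio of EIF4A2 before its snoRNA counts are subtracted. The red medians of start codon and scanning, initiator tRNA delivery, cap binding, scaffolds and subunit joining fall below 0 with library totals.

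Promoter sequences were held for 49 of the 59 genes in RefSeq (GRCh38.p14), from 250 bases before to 50 after each start. CACGTG, the E-box letters to which MYC is known to bind and which read the same on both strands, occurred in 11 of these genes (22.4%), beside 8.77% of all 27305 genes with a promoter and 12.7% of the protein-coding genes tested. The genes were EIF1B, EIF2B3, EIF3F, EIF3K, EIF4A3, EIF4B, EIF4E, EIF4EBP3, EIF4G1, EIF4H and EIF5A2. They include 2 of the 3 subunit genes of eIF4F named above (EIF4E and EIF4G1) and both helicase partners (EIF4B and EIF4H). Their ratios for OLFM4-knockout over OLFM4-wild had a median of 0.52 and ran from -1.52 to 0.91, and those of the 37 without it had a median of 0.35 and ran from -1.45 to 1.06, so the ranges overlapped nearly fully. The match describes letters and not binding, and it was set out here for the genes of the cap complex and its partners, with the E-box in capitals and the strand of each gene.
EIF4E (chr4:98929338-98929373, minus strand): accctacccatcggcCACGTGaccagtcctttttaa
EIF4E (chr4:98929185-98929220, minus strand): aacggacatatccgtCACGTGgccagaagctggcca
EIF4G1 (chr3:184314447-184314482, plus strand): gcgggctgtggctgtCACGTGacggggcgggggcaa
EIF4G1 (chr3:184314524-184314559, plus strand): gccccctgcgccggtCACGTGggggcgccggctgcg
EIF4B (chr12:53006419-53006454, plus strand): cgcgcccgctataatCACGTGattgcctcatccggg
EIF4H (chr7:74174142-74174177, plus strand): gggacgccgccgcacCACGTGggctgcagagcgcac
EIF4EBP3 (chr5:140547634-140547669, plus strand): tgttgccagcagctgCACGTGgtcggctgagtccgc

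The letters CTTTT at the start, on the strand of the gene and within 10 bases before to 12 after it, occurred in 10 of the 49 genes (20.4%), beside 3.61% of all genes with a promoter. This motif was chosen after the start sequences had been seen. It marks a C followed by pyrimidines, as in a terminal oligopyrimidine start. Other runs of pyrimidines were not searched for, so a gene without the motif may still have such a start. Among the elongation factors with a promoter, EEF1E1, EEF1G and EEF2 lacked it. The genes were EEF1A1, EEF1B2, EIF2D, EIF2S3, EIF2S3B, EIF3D, EIF3M, EIF4A2, EIF4B and EIF6. In EEF1A1, EIF3M, EIF4A2 and EIF4B the C of the motif was the annotated first base, which is the base after the first 10 of each window, and in EIF6 the motif lies before that base. All 10 had ratios above 0 in OLFM4-knockout with TMM (EIF2D, EIF2S3, EIF2S3B, EIF3D and EIF4B turned negative with library totals), from 0.16 to 1.002 with a median of 0.43, and the 38 genes without the motif had a median of 0.41. In the library labelled OLFM4-active their medians were 0.22 and 0.36. The windows of 5 of these genes, picked for holding the motif, are shown with it in capitals.
EEF1A1 (chr6:73521021-73521042, minus strand): cgtgaacgttCTTTTtcgcaac
EEF1B2 (chr2:206159885-206159906, plus strand): ctcttcgggtcCTTTTtcctct
EIF3M (chr11:32583821-32583842, plus strand): gcccagttccCTTTTccggtcg
EIF4A2 (chr3:186783567-186783588, plus strand): gcgccgctgtCTTTTcagtcgg
EIF4B (chr12:53006446-53006467, plus strand): tcatccgggtCTTTTgcgttct

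Of 38 other translation genes listed for comparison, 37 reached a mean of 1 CPM. For OLFM4-knockout over OLFM4-wild 10 (27.0%) were called higher and 2 (5.41%) lower, beside 19.1% and 15.8% of all genes, with a median of 0.23. In the library labelled OLFM4-active 7 (18.9%) were called higher and 0 lower, beside 12.3% and 14.5%, with a median of 0.28. With library totals only DOHH and EEF1AKMT1 of the 10 and ABCE1 and MCTS1 of the 7 stayed past 1.5-fold. Under that scaling 6 of the 37 genes were lower by 1.5-fold or more in OLFM4-knockout, beside 30.2% of all genes. Release and recycling factors held 4 of the 10 and 5 of the 7. These were 57.1% and 71.4% of the 7 release and recycling genes tested, beside 19.1% and 12.3% of all genes. With library totals 0 of the 4 and 2 of the 5 stayed past 1.5-fold. ABCE1, which splits the ribosome after termination, stood at 151, 280 and 286 CPM in OLFM4-wild, OLFM4-knockout and the library labelled OLFM4-active, with ratios of 0.89 (0.84 to 0.95) and 0.93 (0.86 to 0.99). MCTS1, which helps to recycle the small subunit, had 19.9, 36.9 and 34.1 CPM, and ETF1, which reads stop codons, had 239, 360 and 379. Beside these, PELO was called in OLFM4-knockout, at 27.4, 43.7 and 33.6 CPM, and DENR and GSPT1 in the library labelled OLFM4-active, at 56.4, 69.6 and 86.2 CPM and 140, 136 and 218 CPM.

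The enzymes that modify eIF5A, eEF1A and eEF2 gave 5 of the 10 calls in OLFM4-knockout. These were 5 of 12 such genes tested (41.7%), beside 19.1% of all genes. DOHH, the last enzyme of hypusine formation, had 3.30, 6.56 and 4.52 CPM and a ratio of 0.98 (0.59 to 1.41), on 60, 337 and 108 counts. DHPS, the enzyme before it, was not called, at 20.8, 28.1 and 20.5 CPM. DPH1 and DPH2, which begin the diphthamide on eEF2, had 42.2, 70.0 and 47.6 CPM and 19.0, 34.9 and 28.8 CPM. EEF2KMT and EEF1AKMT1, methyltransferases of eEF2 and eEF1A, had 11.0, 19.2 and 17.6 CPM and 4.35, 8.38 and 6.03 CPM. MKNK1, a kinase of eIF4E, was the remaining call at 28.3, 46.0 and 31.1 CPM. With library totals the ratios of DPH1, DPH2, EEF2KMT and MKNK1 fell short of a call, at 0.38, 0.52, 0.45 and 0.35.

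The genes called lower in OLFM4-knockout among these were EIF2AK2 and PABPC1. EIF2AK2, the double-stranded RNA-activated kinase of eIF2, had 179, 92.8 and 142 CPM and a ratio of -0.95 (-1.01 to -0.88). PABPC1, the poly(A)-binding protein that eIF4G1 holds, had 1108, 613 and 1498 CPM, with -0.86 (-0.88 to -0.83) in OLFM4-knockout and 0.43 (0.41 to 0.46) in the library labelled OLFM4-active. This is the order seen for EIF1, EIF3A and EIF5B, lowest in OLFM4-knockout and highest in the library labelled OLFM4-active. LARP1, which binds terminal oligopyrimidine mRNAs, was ordered likewise at 383, 318 and 529 CPM. Of the 6 eIF2 kinase and phosphatase subunit genes, EIF2AK2 alone was called in OLFM4-knockout with TMM, and 4 (EIF2AK1, EIF2AK2, EIF2AK4 and PPP1R15A) were lower by 1.5-fold or more with library totals, beside 30.2% of all genes.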

How the data were processed

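Bulk RNA of 3 RWPE1 libraries was analysed, 1 per group, mapped by their labels. The authors trimmed reads with cutadapt, aligned them with HISAT2 to GRCh38, used featureCounts to count read pairs on each gene (unique alignments, reverse strand), and deposited raw counts. Which annotation version they used is not given in the sources used here. Of the rows, 56948 matched GENCODE 44, used for positions, gene types and lengths.

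Counts were scaled with TMM (edgeR 4.0.16, R 4.3.3). The log2 ratios used an offset of 0.5 counts as in voom (limma 3.58.1). Intervals are conditional Clopper-Pearson intervals at 95%. With 1 library per group no test was run. A call is a difference of at least 1.5-fold among genes that averaged 1 CPM or more. The procedure was tested on simulated data. Those data held counting error alone and few changed genes, so they cannot speak to the choice of scaling or to spread between libraries. TPM used the length of the canonical transcript. Alternatives were library totals, DESeq2 1.42.0 size factors, upper quartile factors, library sizes without the 10 most abundant genes, an offset of 5 counts and other filters. Subtracting snoRNA counts, summing EIF3C with EIF3CL and leaving EEF1E1-BLOC1S5 out, and TMM without the library labelled OLFM4-active were chosen after seeing the data. Python 3.11.15, numpy 2.4.6, pandas 2.3.3, scipy 1.17.1 and matplotlib 3.10.9 were used.

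The members and lists were chosen with earlier results of these data known. Every member is named. Full values were planned for the 8 members with the highest and the 8 with the lowest log2 ratios for OLFM4-knockout over OLFM4-wild, the 4 and 4 in the library labelled OLFM4-active, among members that averaged 10 CPM or more, and for the paralog sets, OLFM4, MYC, the called genes of the other list and genes that overlap members. Some of these, such as EIF4ENIF1, EIF4G3, EIF3L, EIF4E2, EIF4B, OLFM4 and MYC, are given without a ratio or an interval of their own. The pair EIF2S3 and EIF2S3B was added after its values were seen. EEF1AKMT4, on the other list, was not analysed here. Some results for the luminal markers are not reported here.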

Additional observations from a re-analysis of the deposited data

How the results depend on the processing

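Counts and medians of the members were recomputed under each alternative, and no test or replicate check exists behind any of them. For OLFM4-knockout over OLFM4-wild, library totals gave 4 members called higher, 9 lower and a median of 0.021, sizes that omit the 10 most abundant genes gave 5, 8 and 0.12, upper quartile factors gave a median of 0.29, and a mean of 10 CPM left 2 called lower. For the library labelled OLFM4-active over OLFM4-wild the median was 0.12 with library totals and 0.11 without the 10 most abundant genes, and 1 member was called lower at a mean of 10 CPM. For OLFM4-knockout over the library labelled OLFM4-active, library totals gave 1 called higher and a median of -0.10, upper quartile factors a median of 0.031, sizes that omit the 10 most abundant genes 0.0083, and a mean of 10 CPM left 5 called lower. The scalings shift all genes by 1 amount, so the members' distance from the median of all genes (0.28, 0.19 and 0.06 in the 3 comparisons) did not move with them. The other 68 recomputed counts and medians stayed within 1.5 times or near the main value. Among the ratios of 1.5-fold or more, EIF3C alone turned sign, to 0.029 in OLFM4-knockout and 0.55 in the library labelled OLFM4-active. This was where its counts were summed with those of EIF3CL. Smaller ratios turned sign more often. With library totals 19 of 58 members did so for OLFM4-knockout over OLFM4-wild. For the library labelled OLFM4-active over OLFM4-wild 6 did so, and for OLFM4-knockout over the library labelled OLFM4-active 16. No paired analysis was possible because each group has 1 library. A gene with few counts, such as EEF1A2 with 12 in the library labelled OLFM4-active, is limited by depth.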

Other observations

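Processed copies of the translation factor genes were counted apart from them. EEF1A1 had 49 pseudogene rows with 8081 counts in OLFM4-wild, 30786 in OLFM4-knockout and 10236 in the library labelled OLFM4-active, or 5.44, 5.18 and 5.37 per 100 counts of EEF1A1 itself. EIF4E had 5 pseudogene rows with 29.9, 25.3 and 31.9 per 100 counts of EIF4E, and EIF3F had 2 with 18.8, 18.5 and 16.4 per 100. EIF1AX had 2 with 11.9, 14.5 and 11.4 per 100. The authors counted unique alignments, so a read that matched a gene and its copy equally well is in neither count.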
